A study of Mus musculus with 24 samples.

Results

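Activity-regulated secreted proteins of neurons, represented by the 8 genes Nptx1, Nptx2, Nptxr, Inhba, Vgf, Scg2, Pcsk1 and Nrn1, were followed at the level of their transcripts across the mouse visual cortex after psilocybin, light, both or neither. The members were taken by gene symbol, and all 8 were found among the 55414 genes counted. RNA was sequenced from the primary visual cortex of male C57 mice aged 8 weeks, with 24 libraries and 6 in each group. All mice lived in a reversed light cycle and were studied in their dark phase. The dark group received the vehicle, phosphate-buffered saline (PBS), and stayed in the dark. The light group received PBS and was moved into light, the psilocybin-dark group received 5 mg/kg psilocybin and stayed in the dark, and the psilocybin-light group received 5 mg/kg psilocybin and was moved into light at once. Tissue was taken 2.5 h later. Total counts ranged from 13552516 to 17906994 per library, and each library is treated as 1 mouse.

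Excitation of a cortical neuron first raises transcription factors such as Fos, Egr1 and Npas4, and then genes whose proteins leave the cell and act on synapses. Nptx2 is such a gene. Its protein, a neuronal pentraxin, is released from axons, forms complexes with the related proteins of Nptx1 and of the membrane-anchored Nptxr, and gathers AMPA receptors at excitatory synapses, among them those on fast-spiking interneurons. Inhba encodes the subunit of activin A, a signalling protein of the TGF-beta superfamily that follistatin (Fst) binds and blocks. Vgf and Scg2 encode granin-type proteins of dense-core vesicles, which the convertases of Pcsk1 and Pcsk2 cut into peptides, and Nrn1 encodes neuritin, a surface-anchored and released protein that promotes dendrite growth and synapse stabilisation and responds to light in visual cortex.

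Light exposure is given by 2 sources that differ. The headings of the study's supplementary count table, followed here, place libraries 1 to 6 in dark, 7 to 12 in psilocybin-dark, 13 to 18 in light and 19 to 24 in psilocybin-light. For each of the 24 libraries the sample labels name the drug identically but reverse light and dark. Every direction below that involves light or darkness rests on the headings, and under the labels the names dark and light are exchanged within each drug. Fos, an early activity gene, had a mean normalized count of 323 ± 92.8 (SD, n = 6) in dark, 773 ± 169 in light, 554 ± 132 in psilocybin-dark and 1060 ± 360 in psilocybin-light by the headings.

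Several libraries stood apart in markers of other brain regions. The summed normalized count of 8 cerebellar markers, all 8 of them detected, was 18204 to 63629 in libraries 1 and 6 (dark), 12 (psilocybin-dark) and 18 (light), against 430 to 1881 in the other 20. Within their groups, those 4 libraries had the lowest counts of Nptx2 and Vgf, so results are also given without them (20 libraries), a choice made once the values were known. The dark group also differed as a whole. Cux2, an upper-layer cortical gene, reached 611 to 1495 in the 6 dark libraries and 2050 to 3074 in the other 18, whereas Fibcd1, a gene of hippocampal CA1 neurons, reached 322 to 4785 in dark and 120 to 305 in the others. Of 13 hippocampal markers 10 could be tested, and their summed count was 6120 to 9630 in dark, 2938 to 5303 in light, 2633 to 5710 in psilocybin-dark and 2607 to 3585 in psilocybin-light. Of 16 hypothalamic markers 9 could be tested, and their sum was 434 to 5009 in dark and 95.6 to 642 in the other groups, with Otp and Calcr at 0 in some libraries. Both of these lists were lower than dark in all 3 other groups (adjusted exact permutation p from 0.00779 to 0.0130 over 36 tests), and the part of tissue composition in the results was not tested. The summed count of 10 cortical glutamatergic markers was 12964 to 33803 in dark and 29793 to 41235 in the other groups. The mean of that list was higher than dark by 0.51, 0.51 and 0.50 on the log2 scale in light, psilocybin-dark and psilocybin-light (adjusted exact permutation p from 0.0240 to 0.0458), with 7, 7 and 8 of 10 genes called higher, and 5 of 10 were lower in the interaction. The summed count of 7 striatal markers was higher by 0.57, 0.41 and 0.62 (adjusted exact permutation p from 0.00779 to 0.0278). Gene by gene, 2, 1 and 2 of the 7 were called higher and 0, 1 and 0 lower. Their median log2 differences were 0.07, 0.01 and 0.11. Of all genes, 15.4%, 11.9% and 17.4% were called higher. Of 5 oligodendrocyte genes, 0 were called over 24 libraries in any of the 3 and 4 were higher in each over 20. In those 20 libraries 2985, 2589 and 3399 of 14135 genes were higher in light, psilocybin-dark and psilocybin-light. The summed count of 5 astrocyte markers differed from dark by -0.29, -0.26 and -0.51 in that order (adjusted exact permutation p = 0.0693, 0.0820 and 0.00779). In bulk tissue, fewer cells of a type and less RNA per cell cannot be told apart.

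**Figure D1:**
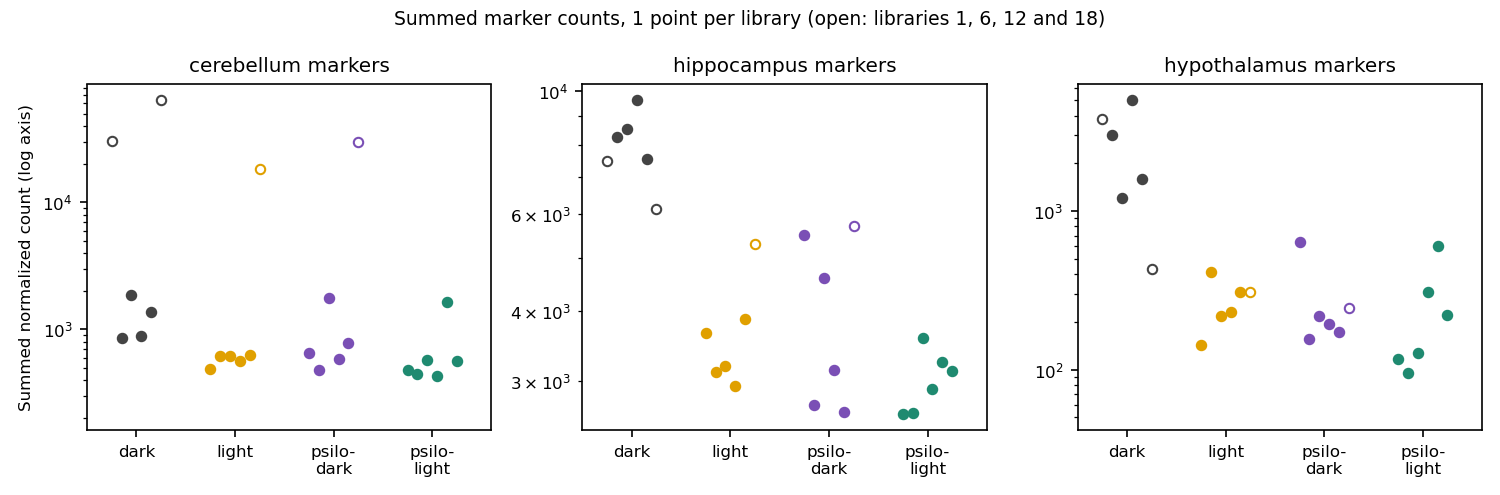
Summed normalized counts of cerebellar, hippocampal and hypothalamic marker genes in each library, on log axes, by group, with libraries 1, 6, 12 and 18 as open points. The 4 open points reach 18204 to 63629 for the cerebellar list, and the dark libraries lie highest for the hippocampal list, at 6120 to 9630.

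All 8 members were well counted. Per kilobase of exon, the mean normalized count over the 24 libraries was highest for Nptxr (3442) and Vgf (2589), followed by Scg2 (1670) and Nptx1 (1637), Nrn1 (1020), Nptx2 (678), Pcsk1 (188) and Inhba (47.8). By mean normalized count, without division by exon length, Nptxr stood at percentile 99.5 and Inhba at 47.2 among the 14464 genes tested. The lowest raw count of any member in any library was 43, for Inhba. In GRCm39 coordinates, Nptx1 lies on chromosome 11 (119428472 to 119438585, minus strand), Nptx2 on chromosome 5 (144482692 to 144500381, plus strand) and Nptxr on chromosome 15 (79670552 to 79688967, minus strand). Vgf is on chromosome 5 (137055246 to 137062205, plus strand) and Scg2 on chromosome 1 (79412386 to 79417837, minus strand). Chromosome 13 holds Pcsk1 (75237284 to 75284898, plus strand), Inhba (16186373 to 16206206, plus strand) and Nrn1 (36909335 to 36919156, minus strand). Counts cover exons of each gene. Exons of Nptxr overlap those of Npcd by 1780 bases, exons of Inhba overlap 4933412O06Rik by 201, and exons of Nrn1 overlap Fars2 by 501 and Gm30177 by 939. Npcd lies on the same strand as Nptxr, so no strand setting would separate their reads. The other overlapping genes lie on the opposite strand, and the strand setting of the counting is not given in the sources used here. Reads in all of those stretches therefore cannot be assigned with certainty.

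Promoter sequence was on hand in RefSeq (GRCm38.p6) for 3 of the 8 members, and it is shown because Pcsk1 and Scg2 carry the full cAMP response element TGACGTCA close to the transcription start, a motif that the activity-dependent factor CREB binds. The 100 bases directly before the start are printed 5′ to 3′ on the gene's strand, with the element, and the core TGACG where it stands alone, in capitals.
Pcsk1, chr13:75089757-75089856, plus strand: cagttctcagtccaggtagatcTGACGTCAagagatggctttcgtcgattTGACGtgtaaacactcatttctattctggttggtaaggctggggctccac
Scg2, chr1:79440027-79440126, minus strand: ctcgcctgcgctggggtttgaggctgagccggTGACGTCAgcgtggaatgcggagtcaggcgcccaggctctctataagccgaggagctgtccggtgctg
Inhba, chr13:16011751-16011850, plus strand: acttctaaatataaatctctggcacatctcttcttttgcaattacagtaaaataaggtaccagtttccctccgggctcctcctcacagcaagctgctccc
In Pcsk1 the full element lay at positions -78 to -71 from the start and a lone core at -50 to -46, and in Scg2 the full element lay at -68 to -61. Inhba had neither in the 250 bases before its start. TATAAA, searched on the gene's strand, was present in the Inhba stretch at -91 to -86. On both strands of the same 250 bases, 1.55% of 32851 promoters held the full element, 16.6% the core outside a full element, and 7.59% TATAAA on the gene's strand. AP-1 sites (TGACTCA, 4.46% of promoters), Egr sites (GCGTGGGCG or GCGGGGGCG, 3.06%), the Npas4-type site TCGTG (13.3%) and the CArG box (1.47%) were searched on both strands too and were not matched in the 3 members. A match is a string of letters and not a site of binding.

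Against the dark group, whose 6 libraries are shared by the next comparisons, members were higher where they were called and 0 were called lower. A gene is called here at a Benjamini-Hochberg adjusted p under 0.05 in edgeR's quasi-likelihood test over the 14464 genes. In light, 3 of 8 were higher (Nptx2, Vgf and Nrn1), against 15.4% of all genes tested. In psilocybin-dark, 6 of 8 were higher (Nptx2, Inhba, Vgf, Scg2, Pcsk1 and Nrn1), against 11.9% of all genes. In psilocybin-light, 5 of 8 were higher (Nptx1, Nptx2, Vgf, Scg2 and Nrn1), against 17.4%. The median log2 difference of the 8 members was 0.47, 0.75 and 0.41 in the same order, and that of all genes was -0.01, -0.02 and -0.02. Groups overlapped in most members: 0 of 8 lay wholly above dark in light (5.59% of all genes did), 0 of 8 in psilocybin-dark (3.13%) and 3 of 8 in psilocybin-light (8.28%), namely Nptx2, Vgf and Nrn1.

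The counts against dark were recomputed in other ways. The share of all genes called is given only for the fit without libraries 1, 6, 12 and 18. The other counts in this paragraph were not set against all genes, so they do not show whether the members differed from genes in general. Without dark libraries 1 and 6, 3 members were higher in light, 7 in psilocybin-dark and 5 in psilocybin-light, and 1 was lower in each. Without libraries 1, 6, 12 and 18, light had 4 members higher and 1 lower (43.1% of 14135 genes were then called in either direction), psilocybin-dark 6 higher and 1 lower (38.3%) and psilocybin-light 5 higher and 1 lower (48.2%), the lower one being Nptxr each time in both sets. In those 20 libraries 4 members lay wholly above dark in light (14.9% of all genes), 6 in psilocybin-dark (12.5%) and 4 in psilocybin-light (14.3%). When only the compared groups entered the fit, the members called higher numbered 1 in light (Nrn1), 2 in psilocybin-dark (Pcsk1 and Nrn1) and 2 in psilocybin-light (Vgf and Nrn1). With the mean of the hippocampal markers as a covariate no member was called against dark. The values under it were smaller for Nptx2 (0.34, 0.58 and 0.23) and Vgf (0.18, 0.30 and 0.23). In psilocybin-dark they were also smaller for Inhba (0.60) and Pcsk1 (0.22). Those of Scg2 were larger (0.66, 0.95 and 0.90). With the mean of the hypothalamic markers as a covariate only Scg2 was called, in light (adjusted p = 0.0308) and psilocybin-light. Its values for Nptx2 (1.28, 1.58 and 1.32) and Vgf (0.49, 0.63 and 0.60) were near those without it, and in psilocybin-dark it gave 1.55 for Inhba and 0.33 for Pcsk1.

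**Figure D2:**
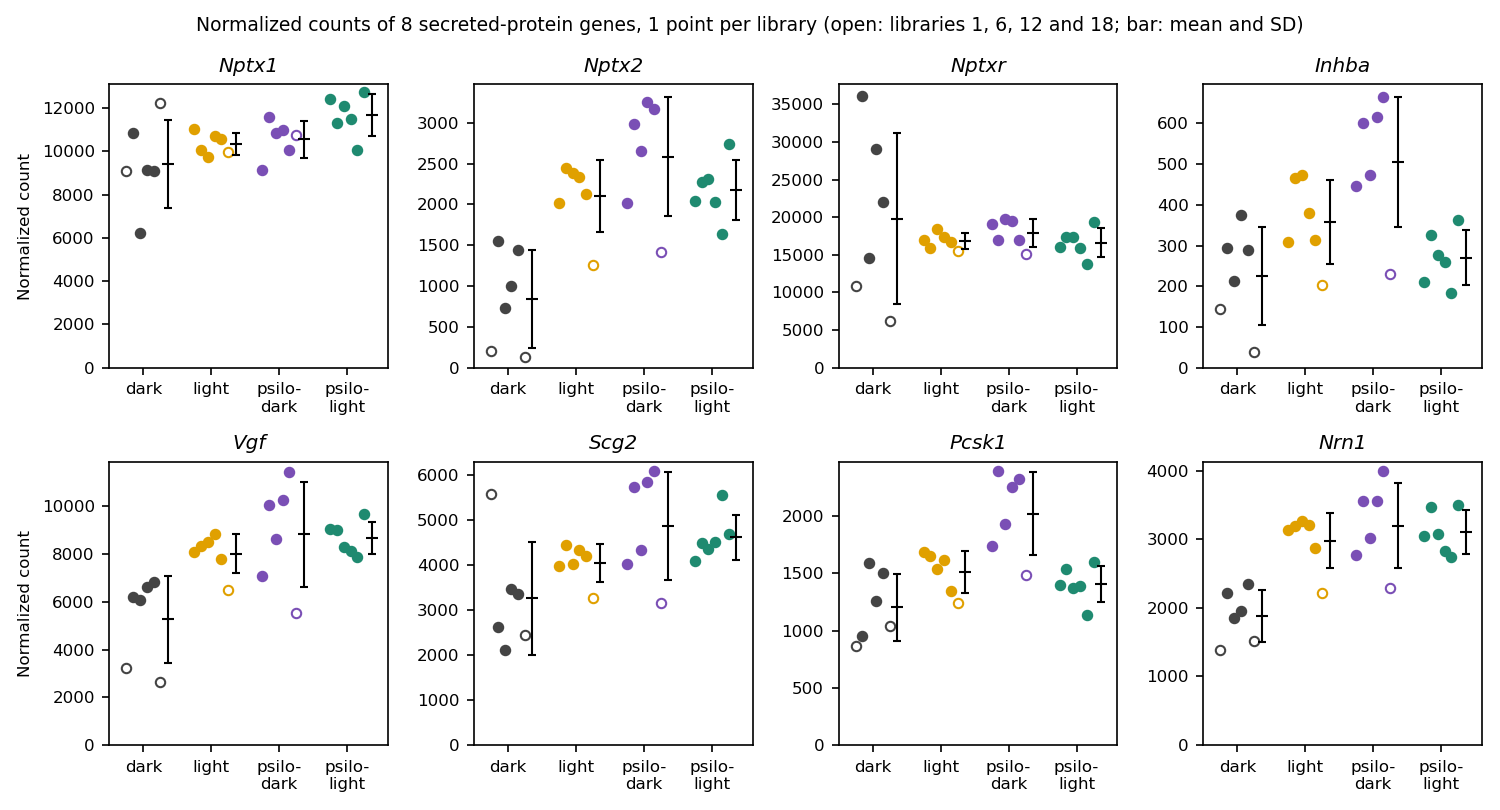
Normalized counts of the 8 members in each library, with group mean and SD at the right of each group and libraries 1, 6, 12 and 18 as open points. Nptx2, Vgf and Nrn1 are lowest in dark, and Inhba and Pcsk1 are highest in psilocybin-dark, where library 12 lies below the other 5.

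Among the pentraxin genes, Nptx2 had the largest log2 differences from dark. Its normalized count was 129 to 1554 in dark (median 862), 1261 to 2445 in light (median 2237), 1422 to 3255 in psilocybin-dark (median 2820) and 1638 to 2736 in psilocybin-light (median 2159). The dark libraries 1 and 6, at 203 and 129, were far below the other 4, which ran from 729 to 1554. Against dark, the log2 fold change was 1.32 ± 0.39 (SE; adjusted p = 0.0133) in light, 1.62 ± 0.40 (0.00465) in psilocybin-dark and 1.37 ± 0.39 (0.00865) in psilocybin-light, which is 2.49-, 3.07- and 2.58-fold. Over 20 libraries these became 0.94, 1.25 and 0.89, each called, and no library of the 3 groups overlapped dark.

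Nptx1, which encodes another secreted pentraxin, differed far less. Its count was 6201 to 12227 in dark, 9743 to 11037 in light, 9115 to 11588 in psilocybin-dark and 10038 to 12752 in psilocybin-light. It was called only in psilocybin-light against dark (log2 0.31 ± 0.10, adjusted p = 0.0215), where the groups overlapped. Its values in light (0.13) and psilocybin-dark (0.16) did not pass the test, the latter passing without library 6 (0.26, adjusted p = 0.0454).

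Nptxr, the pentraxin receptor, did not pass the test in any comparison of the 24 libraries. In dark it spread from 6224 in library 6 to 36137 in library 2, while the other 18 libraries stayed between 13745 and 19800. Dark libraries 2, 4 and 5, at 36137, 29119 and 22054, exceeded every library of the other groups, and libraries 1 and 6 lay below them all. Over 20 libraries Nptxr was lower than dark in light (log2 -0.58, adjusted p = 0.00609), psilocybin-dark (-0.47, 0.0246) and psilocybin-light (-0.61, 0.00249), with overlapping groups.

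No member's own count kept all 3 groups clear of dark, but the ratio of Nptx2 to Nptxr did. The log2 ratio of Nptx2 to Nptxr raw counts ran from -5.74 to -3.94 in dark, -3.61 to -2.70 in light, -3.42 to -2.42 in psilocybin-dark and -3.07 to -2.82 in psilocybin-light, so no library of the 3 groups overlapped dark. The difference from dark was 1.80, 1.99 and 1.89 in that order, each with an exact two-sided permutation p of 0.00216, the smallest that 6 against 6 allows, and 0.00649 after Benjamini-Hochberg adjustment over 15 tests of 5 ratios. Without the 4 libraries the differences were 1.50, 1.69 and 1.47, still with no overlap (adjusted exact permutation p = 0.0340). For Nptx2 to Nptx1 the differences from dark were 1.63, 1.88 and 1.52 (adjusted exact permutation p = 0.0139, 0.0139 and 0.00649). Leaving out only the dark libraries 1 and 6 brought these to 0.60, 0.85 and 0.50 (adjusted exact permutation p = 0.0536, 0.0536 and 0.0286). Over 20 libraries they were 0.73, 1.02 and 0.50, with no overlap (adjusted exact permutation p = 0.0340 for each). A ratio within a library does not depend on library size but can depend on the mix of tissue. The summed hippocampal markers also kept dark (6120 to 9630) clear of the other groups (2607 to 5710). No ratio was fitted with a region covariate, and the part of tissue composition in the ratios was not tested.

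**Figure D3:**
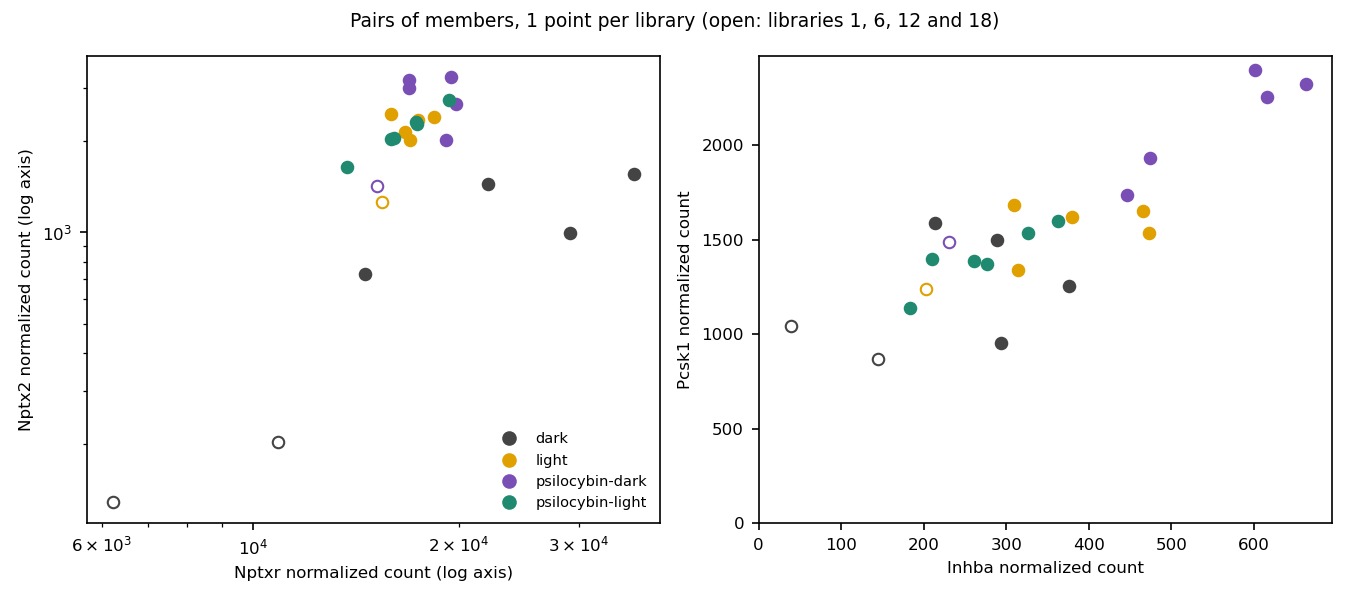
Normalized counts of Nptx2 against Nptxr (log axes) and of Pcsk1 against Inhba (linear axes from 0), 1 point per library, coloured by group, with libraries 1, 6, 12 and 18 open. Dark libraries lie at low Nptx2 for their Nptxr, and 5 psilocybin-dark libraries lie at the upper right for Pcsk1 and Inhba.

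AMPA receptor subunits and other synaptic organisers went both ways. Of 16 listed partners 14 could be tested. In light 1 was higher and 2 were lower, in psilocybin-dark 2 and 2, and in psilocybin-light 1 and 6, where 16.5%, 12.8% and 21.0% of all genes were called lower and 15.4%, 11.9% and 17.4% higher. The list medians were -0.26, -0.10 and -0.26. Gria1, an AMPA receptor subunit, fell by 0.82 in light, 0.71 in psilocybin-dark and 0.86 in psilocybin-light on the log2 scale. Cbln2, a secreted organiser that links neurexins to their postsynaptic partners, rose by 1.47, 1.59 and 1.57, and C1ql1, a related secreted protein, fell by 0.51, 0.83 and 0.68. Cacng2, an AMPA receptor auxiliary subunit singled out after its values were seen, was called higher only in psilocybin-dark over 24 libraries (0.53, adjusted p = 0.0339) and in all 3 groups over 20 (0.89, 0.90 and 0.73).

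Nrn1 was higher than dark in all 3 groups. Its count was 1383 to 2340 in dark (median 1906), 2221 to 3263 in light (median 3162), 2287 to 3999 in psilocybin-dark (median 3288) and 2739 to 3492 in psilocybin-light (median 3057). In light, only library 18 (2221), and in psilocybin-dark only library 12 (2287), fell within the dark range. The log2 fold change was 0.67 ± 0.13 (SE; adjusted p = 0.000629) in light, 0.77 ± 0.13 (0.000266) in psilocybin-dark and 0.73 ± 0.13 (0.000191) in psilocybin-light. All 3 calls held with each library left out in turn and when only the compared groups were fitted, but not with either region covariate. Under the hippocampal one the values were 0.11, 0.18 and 0.08, and under the hypothalamic one 0.46, 0.56 and 0.51.

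Inhba was higher in psilocybin-dark than in dark. Its count was 39.3 to 376 in dark (median 251), 203 to 473 in light (median 347), 231 to 664 in psilocybin-dark (median 537) and 183 to 362 in psilocybin-light (median 269). In psilocybin-dark, 5 libraries ran from 446 to 664, above every dark library, and library 12, at 231, did not. The log2 fold change against dark was 1.16 ± 0.34 (SE; adjusted p = 0.0147) in psilocybin-dark, a 2.24-fold difference, 0.66 ± 0.34 (0.140) in light and 0.26 ± 0.34 (0.583) in psilocybin-light. Without the 4 libraries it was 0.93 (adjusted p = 0.000594) in psilocybin-dark, 0.41 (0.0891) in light and -0.11 (0.649) in psilocybin-light. The psilocybin-dark call was lost when only the compared groups were fitted (1.16, adjusted p = 0.0816, edgeR). It was also lost with the hippocampal covariate (0.60, adjusted p = 0.930) and the hypothalamic one (1.55, 0.323). The part of dissected tissue in the Inhba difference was not tested.

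The other subunit genes of the activin and inhibin family were read beside Inhba. Inhbb, the beta-B subunit, had group means between 175 and 185 and was called in no comparison. The log2 ratio of Inhba to Inhbb differed from dark by 0.91 in light, 1.30 in psilocybin-dark and 0.48 in psilocybin-light, none past the test (adjusted exact permutation p = 0.205, 0.0528 and 0.582). Inha, the inhibin alpha subunit, was higher than dark in light (log2 0.34, adjusted p = 0.0284) and not called in the psilocybin groups, and over 20 libraries the value in light was 0.19 (adjusted p = 0.156). Fst, the activin antagonist, was low in dark, at 7.31 to 45.6, and 85.4 to 141 in the other 18 libraries, so that no library overlapped. Its log2 fold change was 2.16 ± 0.27 (SE) in light, 2.25 ± 0.27 in psilocybin-dark and 2.07 ± 0.27 in psilocybin-light, called in all 3, and 1.80, 1.91 and 1.67 without the 4 libraries. Of the 18 genes of the activin pathway 17 could be tested, with 3 higher and 6 lower in light, 2 and 2 in psilocybin-dark and 3 and 8 in psilocybin-light, and list medians of -0.06, 0.00 and -0.16. Of all genes, 15.4% were higher and 16.5% lower in light, 11.9% and 12.8% in psilocybin-dark and 17.4% and 21.0% in psilocybin-light. Among them, the activin receptor gene Acvr2a fell by 0.95, 0.72 and 1.00 in light, psilocybin-dark and psilocybin-light. The follistatin-like genes split, with Fstl4 rising by 0.80, 1.14 and 0.97 and Fstl5 falling by 1.07, 1.00 and 1.25.

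Vgf, the precursor of several neuropeptides, was higher than dark in all 3 groups. Its count was 2645 to 6840 in dark (median 6144), 6490 to 8833 in light (median 8224), 5522 to 11429 in psilocybin-dark (median 9355) and 7863 to 9671 in psilocybin-light (median 8659). Dark libraries 2 to 5 lay close together, from 6077 to 6840, and libraries 1 and 6 lay at 3236 and 2645. The log2 fold change was 0.61 ± 0.19 (SE; adjusted p = 0.0197) in light, 0.75 ± 0.19 (0.00702) in psilocybin-dark and 0.72 ± 0.19 (0.00539) in psilocybin-light. In the 20 libraries it was 0.37, 0.56 and 0.44, each called, with no overlap. Leaving out only dark libraries 1 and 6 brought the value in light to 0.32 (adjusted p = 0.0623).

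Scg2, the precursor of the peptide secretoneurin, behaved less evenly. Dark library 1 had 5589, while the other 5 dark libraries ran from 2114 to 3463. The count was 3273 to 4447 in light, 3152 to 6099 in psilocybin-dark and 4087 to 5572 in psilocybin-light. Its log2 fold change was 0.31 ± 0.18 (SE; adjusted p = 0.204) in light, 0.58 ± 0.18 (0.0244) in psilocybin-dark and 0.50 ± 0.18 (0.0344) in psilocybin-light. Without library 1 it was also called in light (0.54, adjusted p = 0.00930). The psilocybin-dark call was lost without library 2, 3, 8, 10 or 11 (values 0.48 to 0.53), and the psilocybin-light call without library 2, 3, 6, 23 or 24 (0.40 to 0.51). Without the 4 libraries all 3 comparisons were called, at 0.54, 0.85 and 0.69, and no library overlapped dark.

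Pcsk1, which encodes prohormone convertase 1, was highest after psilocybin in the dark. Its count was 869 to 1587 in dark (median 1150), 1237 to 1683 in light (median 1576), 1488 to 2397 in psilocybin-dark (median 2093) and 1140 to 1600 in psilocybin-light (median 1394). In psilocybin-dark, 5 libraries, from 1734 to 2397, exceeded every library of the other 3 groups, and library 12, at 1488, did not. Against dark the log2 fold change was 0.75 ± 0.14 (SE; adjusted p = 0.000488) in psilocybin-dark, a 1.68-fold difference, 0.33 ± 0.14 (0.0736) in light and 0.23 ± 0.14 (0.208) in psilocybin-light. The value in light was called without library 3, 5, 12 or 18 (0.34 to 0.43).

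The partners of Pcsk1 in peptide processing divided. Of the 13 other genes for granins and prohormone processing, all 13 tested, 5 were higher and 3 lower in light, 3 and 0 in psilocybin-dark and 5 and 4 in psilocybin-light, beside the same shares of all genes (15.4% and 16.5%, 11.9% and 12.8%, 17.4% and 21.0%). Pcsk2, the second neuroendocrine convertase, rose by 0.64, 0.67 and 0.79 on the log2 scale, Scg5, the chaperone of that convertase, by 0.39, 0.30 and 0.53, and Scg3, a granin that sorts cargo into vesicles, by 0.23, 0.29 and 0.22. Chgb, a granin, was called in light (0.41) and psilocybin-light (0.37) and missed in psilocybin-dark (0.38, adjusted p = 0.0528). Chga, also a granin, Cpe, the carboxypeptidase that trims cut peptides, and Pam, the enzyme that amidates them, were called in none of the 3, though Cpe was lower in each over 20 libraries (-0.23, -0.26 and -0.21). The log2 ratio of Pcsk1 to Pcsk2 was lower than dark in psilocybin-light, by -0.57 with no overlap (adjusted exact permutation p = 0.00649), while in psilocybin-dark the difference was 0.06 (adjusted exact permutation p = 0.677). In light the difference was -0.31 and missed the threshold (adjusted exact permutation p = 0.0577), passing it in 1 of 24 fits with 1 library removed.

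**Figure D4:**
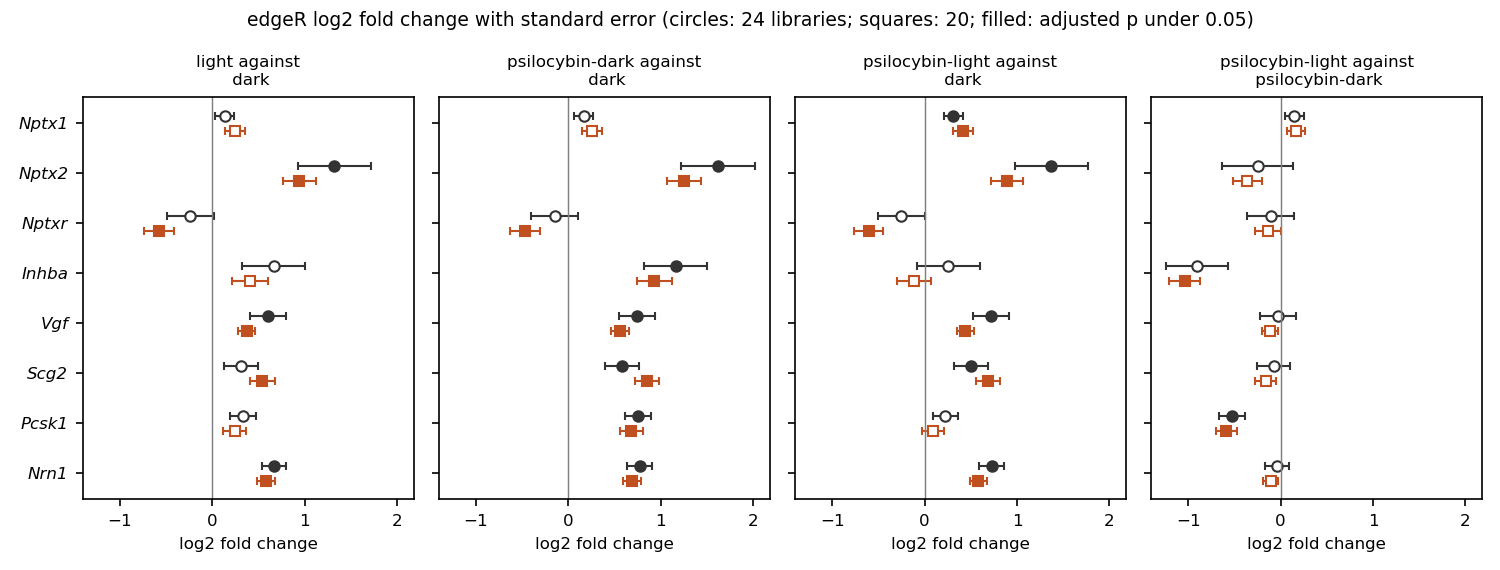
Log2 fold change of each member with its standard error in 4 comparisons, from all 24 libraries (circles) and from 20 (squares), filled where the adjusted p was under 0.05. Nptx2 reaches 1.32 to 1.62 against dark, and in psilocybin-light against psilocybin-dark the values of Inhba (-0.90) and Pcsk1 (-0.52) stand away from 0.

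Light given after psilocybin was compared with psilocybin alone in a contrast of those 2 groups, in which the dark libraries enter only through the shared estimate of spread. Pcsk1 was lower in psilocybin-light than in psilocybin-dark by a log2 difference of -0.52 ± 0.14 (SE; adjusted p = 0.0245, edgeR), a 1.44-fold difference, and it was the only member of 8 called, where 6.38% of all genes were called in either direction. Only library 12, at 1488, overlapped the psilocybin-light range of 1140 to 1600. Inhba differed by -0.90 ± 0.34 (1.87-fold) and missed the threshold over the 24 libraries (adjusted p = 0.116). The other 6 members differed by -0.25 (Nptx2) to 0.15 (Nptx1), none called. Without libraries 1, 6, 12 and 18, both Inhba (-1.04, adjusted p = 0.000470) and Pcsk1 (-0.59, 0.00150) were called, against 17.2% of all genes, and those 2 members lay wholly below psilocybin-dark, as 6.45% of all genes did. The Pcsk1 call was lost without library 8, 10, 11, 19 or 23 (-0.51 to -0.47, adjusted p from 0.0546 to 0.0632), and Inhba was called without dark library 6 (-0.90, 0.0260), without dark libraries 1 and 6 (-0.90, 0.0125) or when only these groups were fitted (-0.91, 0.0208). With the hippocampal covariate Pcsk1 kept its call (-0.58, adjusted p = 0.00713), and with the hypothalamic covariate too (-0.54, 0.00902).

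Genes next to these in function were read in the same comparison. Pcsk1n encodes proSAAS, an inhibitor of the Pcsk1 enzyme, and its count was 9540 to 11306 in psilocybin-dark, 11891 to 14642 in psilocybin-light and 12272 to 14192 in light, so that psilocybin-dark overlapped neither. It was 0.28 ± 0.06 higher in psilocybin-light than in psilocybin-dark on the log2 scale (adjusted p = 0.0102). Scg5 was higher as well, by 0.23 ± 0.06 (adjusted p = 0.0261), whereas Pcsk2 (0.12) and Fst (-0.18) were not called. The growth factor gene Bdnf, singled out after its values were seen, was lower in psilocybin-light by -0.67 ± 0.16 (adjusted p = 0.0123). Fos was higher, by 0.94 ± 0.22 (adjusted p = 0.0131), and Arc by 0.80 ± 0.29 without a call (adjusted p = 0.106).

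Psilocybin added to light gave no call among the members. In psilocybin-light against light, 0 of 8 passed the edgeR test, against 0.608% of all genes in either direction. The largest difference was that of Inhba, -0.41 ± 0.34 (SE), and Nptx2 differed by 0.05 ± 0.39, Vgf by 0.11 ± 0.19 and Nrn1 by 0.06 ± 0.13. No member had an unadjusted p under 0.05 over the 24 libraries, and DESeq2 made 0 calls as well. Over 20 libraries the count was again 0, where 60 of 14135 genes were called higher and 271 lower. Inhba then differed by -0.52, with an unadjusted edgeR p of 0.00649 (adjusted p = 0.126).

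Psilocybin in the dark was set against light alone to ask whether drug and light differed from each other. In the 24 libraries 0 of 8 members were called by edgeR, and 0 by DESeq2, against 0.456% of all genes. Pcsk1 came nearest, at 0.42 ± 0.14 (SE; adjusted p = 0.132), and was the 1 member with an unadjusted p under 0.05. In the 20 libraries Pcsk1 was called (0.44, adjusted p = 0.0341), where 6.03% of all genes were called in either direction, and its psilocybin-dark libraries lay wholly above those in light, as in 3.14% of all genes. Inhba differed by 0.50 ± 0.33 in the 24 libraries (adjusted p = 0.551) and was not called in either set.

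The effect of psilocybin under light less its effect in the dark, the interaction, was below 0 and called for 3 of 8 members, against 8.75% of all genes in either direction. It was -1.57 ± 0.48 (SE; adjusted p = 0.0427) for Inhba, -0.86 ± 0.20 (0.0103) for Pcsk1 and -0.71 ± 0.19 (0.0226) for Nrn1. Nptx2 had -1.57 ± 0.55 (adjusted p = 0.0757). For Nrn1, dark had a mean of 1877 ± 376 (SD, n = 6) and the other 3 groups had means from 2980 to 3200, so each treatment alone came close to the level of both. For Pcsk1 and Inhba, the mean with both treatments was below that with psilocybin alone (1406 ± 160 against 2021 ± 364 for Pcsk1, and 270 ± 67.8 against 505 ± 159 for Inhba). Of 24 fits with 1 library removed, 16 lost the Inhba call (adjusted p up to 0.0767), and Nptx2 was called without library 2, 5, 6 or 12. Over 20 libraries 6 members were called, Nptx1 and Nptxr not, against 27.0% of all genes, and with either region covariate none was, at -1.09 (hippocampal) and -1.94 (hypothalamic) for Inhba, -0.41 and -0.46 for Pcsk1, and -0.21 and -0.51 for Nrn1.

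Other secreted genes that respond to activity were counted from a list of 14, of which 13 could be tested. In light 5 were higher and 3 lower than dark, in psilocybin-dark 6 and 3, and in psilocybin-light 4 and 1, with list medians of 0.25, 0.53 and 0.18. The shares of all genes called higher and lower were 15.4% and 16.5%, 11.9% and 12.8%, and 17.4% and 21.0%. Those called in all 3 numbered 5. Penk, the enkephalin precursor, fell by 1.57, 1.57 and 1.65 on the log2 scale. Crh, corticotropin-releasing hormone, rose by 1.37, 1.67 and 1.53, Npy, neuropeptide Y, by 1.27, 1.08 and 1.27, Vip, the peptide of an interneuron class, by 1.11, 1.12 and 1.20, and Ccn1, a matrix protein, by 1.38, 0.82 and 1.76. For comparison, all 10 activity genes of a list holding Fos, Egr1 and Arc were higher in light and in psilocybin-light, and 9 in psilocybin-dark. Egr1 rose by 1.88, 1.64 and 2.05, and Arc by 2.83, 2.44 and 3.23.

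Members moved together within groups to differing degrees. After each group's mean was removed, the Pearson correlation of log2 counts over the 24 libraries was 0.93 for Nptx2 with Vgf, 0.89 for Nptx2 with Nptxr, 0.89 for Inhba with Vgf and 0.88 for Vgf with Nrn1. In the 20 libraries without 1, 6, 12 and 18 the same pairs gave 0.64, 0.61, 0.63 and 0.87. Nptx1 with Nptx2 went from -0.17 over 24 libraries to 0.78 over 20. These points share tissue composition and library, so the values are a description. Over the 24 libraries as they stood, the genes most like Nptx2 were Actn1, Kcnv1 and Cx3cl1 (r from 0.97 to 0.98), those most like Vgf were Fscn1, Cx3cl1 and Mast3 (0.97 to 0.98) and those most like Nrn1 were Actn4, Adgrd1 and Rgs4 (0.97 to 0.98). Nptxr was nearest to Mink1, C2cd4c and Fkbp1a (0.94 to 0.96), Pcsk1 to Heca, Jcad and Cdh11 (0.90 to 0.94) and Inhba to Gabrg3, Tspyl5 and Hsph1 (0.89 to 0.90). Scg2 was nearest to the neurofilament genes Nefl and Nefm and to Rtl5 (0.86 to 0.88), and Nptx1 to Epdr1, Rragd and Tuba8 (0.80 to 0.82).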

How the data were processed

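The authors enriched polyadenylated RNA, trimmed reads with cutadapt, mapped them with STAR and, for each Ensembl gene, counted reads by htseq-count. The study's methods name GRCm39 and the submitters' processing notes mm10. The deposited values are raw counts, with no row outside genes and 0 unused sample columns. Groups follow the headings of the study's supplementary count table, in which raw counts of 1457 genes matched the deposited counts in all 24 libraries, with 0 differences. Nothing states that each library is 1 animal beyond the group sizes, so p-values measure the spread between libraries.

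In R 4.3.3, edgeR 4.0.16 (limma 3.58.1) kept the 14464 genes that reached a count of 30 in any library, scaled libraries by TMM and fitted 1 term per group to all 24 libraries with the quasi-likelihood test (two-sided, Benjamini-Hochberg adjusted over all genes tested). The common biological coefficient of variation was 0.182. A normalized count is the count scaled to the mean effective library size, 16058300. SE is the log2 fold change over the root of F. Log2 values for correlations used a prior count of 2, and ratios of raw counts a pseudocount of 0.5 and exact permutation over 924 arrangements (scipy 1.17.1, Python 3.11.15). The fit was tested on simulated data. Positions and names came from GENCODE vM39, promoters from RefSeq. DESeq2 1.42.0, with betaPrior, cooksCutoff and independent filtering off, and the other alternatives are given at the end. Figures used matplotlib 3.10.9.

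Named genes were the members, listed partners, up to 4 further genes per list called in all 3 comparisons with dark by smallest adjusted p in psilocybin-light (Vip, Bdnf and Cacng2 were added after their values were seen), the 3 genes most correlated with each member, and Egr1, Arc and Fos. The members and lists were chosen with earlier results of these data known.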

Additional observations from a re-analysis of the deposited data

Results flagged for a closer look

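Nptx2 in light library 18 stood apart from its group: its normalized count was 1261, against 2015 to 2445 in the other 5 light libraries, a gap of 0.637 of the group's range, above Dixon's limit for 6 samples. That limit is passed by chance in about 1 of every 20 groups, and 32 groups were screened (8 members in 4 groups). Library 18 is 1 of the 4 libraries with high cerebellar markers, and its summed count of 8 such markers was 18204, against 490 to 634 in the other light libraries. Their part in the Nptx2 value was not tested.

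The effect of psilocybin differed between light and dark for 3 of 8 members, against 8.75% of all genes in either direction. Psilocybin under light less psilocybin in the dark was -1.57 for Inhba (adjusted p = 0.0427, edgeR), -0.86 for Pcsk1 (0.0103) and -0.71 for Nrn1 (0.0226). With the hippocampal covariate the values were -1.09, -0.41 and -0.21 and with the hypothalamic one -1.94, -0.46 and -0.51, none called, and the part of dissected tissue in them was not tested. The Inhba call was lost in 16 of 24 fits with 1 library removed.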

How the results depend on the processing

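DESeq2, DESeq2's size factors and filterByExpr changed no call among the 56 differences (8 members, 7 comparisons), and no filter ended 2. With no library left out, members called higher numbered 3 in light, 6 in psilocybin-dark and 5 in psilocybin-light against dark. Leaving out each library in turn gave 3 to 4, 5 to 7 and 4 to 5, 0 to 2 lower in psilocybin-light against psilocybin-dark, and 2 to 4 lower in the interaction. At an adjusted p under 0.01 the counts were 1 in light, 4 in psilocybin-dark, 3 in psilocybin-light, 0 lower in psilocybin-light against psilocybin-dark and 0 in the interaction. With only the groups compared they were 1, 2 and 2 higher against dark, and 2 lower in psilocybin-light against psilocybin-dark. Without dark libraries 1 and 6, 1 member (Nptxr) was lower in each comparison with dark, 2 were lower in psilocybin-light against psilocybin-dark, and the Scg2 to Vgf ratio in psilocybin-dark against dark went from -0.18 to 0.33 (adjusted exact permutation p = 0.0476). Without libraries 1, 6, 12 and 18, 1 was lower in each comparison with dark, 2 in psilocybin-light against psilocybin-dark and 6 in the interaction, and 1 was higher in psilocybin-dark against light. The hippocampal covariate left 0, 0 and 0 higher against dark and 0 in the interaction, and turned Nptx1 in psilocybin-light against dark to -0.067. The hypothalamic covariate left 1, 0 and 1, and 0 in the interaction. The covariates follow the dark group, and the cause of these changes was not tested. Shares of all genes called are given above for the main fit and the 20 libraries only. Counts at the other settings were not set against all genes, so they do not show whether the members differed from genes in general.

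Under the sample labels' light exposure, which renames the same libraries, light against dark had 0 members higher and 3 lower (Nptx2 -1.32, Vgf -0.61, Nrn1 -0.67). Psilocybin against PBS then had 0 higher in the dark (Inhba -0.41, Pcsk1 -0.10) and 6 higher under light (Inhba 1.16, Pcsk1 0.75). Psilocybin-light against dark had 0 higher, psilocybin-dark against light 5 higher, and psilocybin-light against psilocybin-dark 1 higher (Pcsk1 0.52) and 0 lower. The interaction had 3 higher and 0 lower (Inhba 1.57, Pcsk1 0.86, Nrn1 0.71). Sign changes of values called under neither setting numbered 61 over all settings. No paired analysis was possible because no library number is shared between groups.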
